A study of Canis lupus familiaris with 36 samples.

Results

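The miR-15/16 family was described in canine heart tissue through 7 mature miRNAs, cfa-miR-15a, cfa-miR-15b, cfa-miR-16, cfa-miR-195, cfa-miR-497, cfa-miR-424 and cfa-miR-503, written here without the prefix for dog. They were chosen by name from the 453 mature miRNAs of the deposited table, all 7 were found, and all 7 passed the filter on low counts, which kept 225 mature miRNAs. Small RNA was sequenced from whole formalin-fixed, paraffin-embedded (FFPE) heart tissue of 6 dogs with cardiac hemangiosarcoma (HSA), a malignant tumor of endothelial cells, and of 6 control dogs that died of non-neoplastic causes. No treatment or genotype was part of the design. By the authors' account, dogs with earlier chemotherapy were not excluded, and over the study dogs with HSA were significantly older than controls. Neither age nor chemotherapy entered the fits here. The series also lists 18 splenic HSA and 6 splenic control samples, which were not analysed here. For every cardiac library the deposited title and treatment field name opposite conditions, and the title was followed. Whole tissue was used, so fewer cells of a type and less RNA per cell cannot be told apart.

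Members of this family share the seed, the short stretch at the start of a miRNA that pairs with its targets, and miR-503 carries a closely related one. The family is known for slowing the passage from G1 into S phase by repressing cyclins, their kinases and CDC25 phosphatases, and for repressing the survival factor BCL2. In the mouse heart, miR-195 and its relatives are known to rise after birth, when heart muscle cells stop dividing. MiR-15a and miR-15b are each made from 1 transcript with a copy of miR-16, miR-195 together with miR-497, and miR-424 together with miR-503, a pair known to respond to hypoxia and to act in endothelial cells. RefSeq's gene table of the dog assembly UU_Cfam_GSD_1.0 lists the same partners as neighboring miRNA genes, MIR15A beside MIR16-1, MIR15B beside MIR16-2, MIR195 beside MIR497 and MIR503 beside MIR424, with MIR542, MIR450A and MIR450B next in line. Both copies of miR-16 give the same mature miRNA, and the table counts nearly all of its reads on both, so 1 of the 2 entries was used.

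Library totals, with identical entries merged, were 6999830 to 11668822 counts for control and 2018959 to 8999025 for HSA. Levels are given as CPM, counts scaled to library size, with TMM factors that hold the bulk of the miRNAs steady between libraries. The heart muscle miRNAs were high in every control library, with a sum over 8 of them from 189921 to 271362 CPM, in which reads of miR-133a and miR-133c count for both. In HSA, this sum ran from 942 to 233009 CPM, and replicates 1 (190256 CPM) and 6 (233009 CPM) reached the control range. The defining muscle miRNA miR-208a had no read in HSA replicates 3, 4, 5 and 6, and miR-208b had none in HSA replicate 3. MiR-208a was low in both groups, with a mean of 3.92 CPM in control and 4.68 CPM in HSA. HSA replicate 6 had no read of it although the muscle sum of that library reached the control range. All 6 HSA libraries lay above every control library in liver and in epithelial miRNAs, and HSA replicates 3 and 5 held the extremes. The liver miRNA miR-122 ran from 4.99 to 43.9 CPM in control and from 66.7 to 204390 CPM in HSA, highest in replicate 3. The sum of 7 epithelial miRNAs was 7.74 to 20.9 CPM in control and 43.2 to 3285 CPM in HSA, highest in replicate 5. HSA replicate 4 had the next highest epithelial sum, at 544 CPM. Values without HSA replicates 3 and 5 are given beside the results they move. The endothelial miR-126 was not called different between the groups. The sum of 3 erythroid miRNAs, of which 1 was called higher, was 20867 to 29994 CPM in control and 5709 to 47480 CPM in HSA. The called one was miR-144, at a log2 fold change of 1.77, and miR-451 was at 0.81. MiR-486 went the other way, at -1.33 and not called, with every HSA library below every control library. Its mean was 19182 CPM in control and 7612 CPM in HSA. The 3 leukocyte miRNAs miR-223, miR-142 and miR-150 were called higher in HSA, with a sum of 188 to 313 CPM in control against 473 to 2962 CPM in HSA. The part of these cell types in the results was not tested.

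The summed normalized level of the family is a description here, and its direction depended on the scaling and the libraries. The 7 members added up to 4352 ± 384 CPM (SD, n = 6) in control and 4362 ± 851 CPM (SD, n = 6) in HSA. The HSA libraries were more scattered, from 3193 CPM in replicate 5 to 5721 CPM in replicate 3, against 3768 to 4682 CPM in control. Of the counts of a library with 1 entry kept per mature miRNA, without normalization, the family took 0.366% to 0.515% in control libraries. In HSA libraries it took 0.472% to 0.956%, and 5 of 6 were above every control. For the shallowest library, HSA replicate 1, this share was 0.56% (95% Wilson interval 0.549% to 0.572%, which covers counting error only). For the summed CPM, the difference of the mean log2 values was -0.01, but 0.54 with library size only and -0.30 without HSA replicate 4. MiR-16 alone makes up most of the sum, and no test was run on it, since it is a score over chosen members.

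In control heart the levels fell in the order miR-16, miR-195, miR-15b, miR-497, miR-15a, miR-503 and miR-424. MiR-16 made up 68.7% ± 1.84 (SD, n = 6) of the family's counts there, miR-195 18.2% ± 1.31 and miR-15b 8.69% ± 0.824. These are levels of molecules of nearly equal length, but ligation favors some small RNAs over others, so the order is that of the libraries. The ranges of miR-497 and miR-15a overlapped, as did those of miR-503 and miR-424, although miR-497 was above miR-15a and miR-503 above miR-424 in all 12 libraries. MiR-195 was above miR-15b in 6 of 6 control libraries and in 4 of 6 HSA libraries. The order of the mean levels was the same in HSA, where miR-16 made up 64.2% ± 4.15 of the family's counts, miR-195 15.9% ± 3.79 and miR-15b 12.8% ± 1.57.

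**Figure D1:**
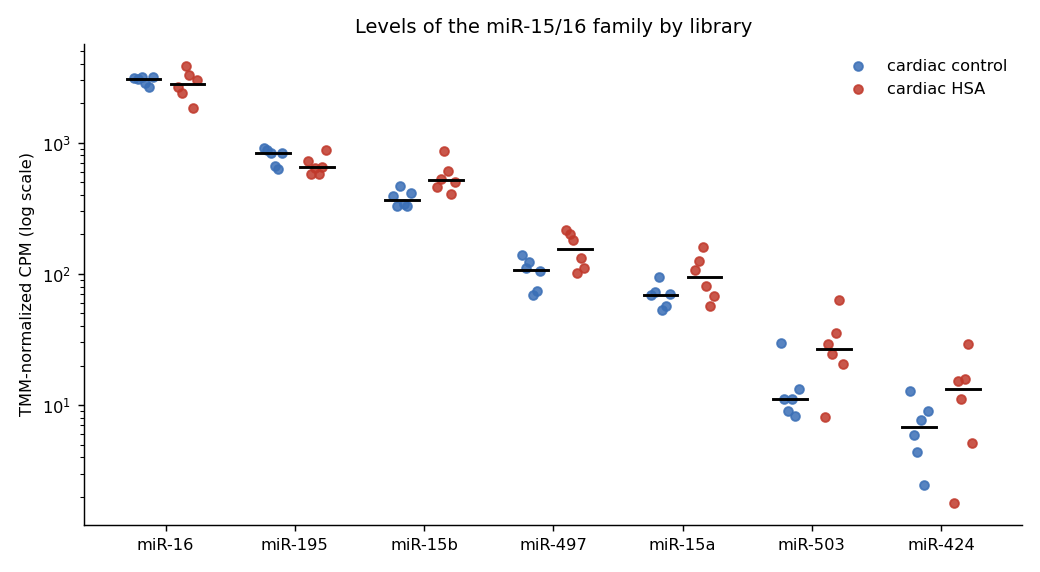
Levels of the 7 members in TMM-normalized CPM on a log scale, 1 point per library, with control in blue, HSA in red and the group median as a black bar. MiR-16 has a median of 3063 CPM in control and 2810 CPM in HSA, and miR-503 and miR-424 spread most widely among the HSA libraries.

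None of the 7 members was called different between HSA and control. The call required, in edgeR's quasi-likelihood test with Benjamini-Hochberg adjustment, an adjusted p below 0.01 together with a change of at least 1 on the log2 scale, and 58 of the 225 miRNAs tested met this (25.8%; 18.7% higher and 7.11% lower in HSA). At an unadjusted p under 0.05, edgeR gave 3 of the 7 members, miR-15b, miR-497 and miR-503, all higher in HSA, where 53.3% of all tested miRNAs passed in either direction. At an adjusted p under 0.05 there was 1 member, miR-15b, against 45.3% of all tested, and with the fold threshold kept there were 0, against 33.8%. DESeq2, the tool of the study, called 0 of the 7 (24.6% of all it tested), and limma on the deposited CPM called 1, miR-15b (25.8% of all). With each library left out in turn, edgeR called 0 members in all 12 fits, which called 10.6% to 28.8% of all tested miRNAs. In no member did the groups separate without overlap, which 58 of the 225 miRNAs did (25.8%, with 15.1% higher in HSA). Of the members 5 had a log2 fold change above 0, as did 63.1% of all tested. Over the members the median log2 fold change was 0.57, and over all tested miRNAs it was 0.34. The 95% intervals of miR-16, miR-195 and miR-15b lay within a fold change of 2 in both directions (log2 values of -1 and 1), whereas those of miR-15a, miR-497, miR-424 and miR-503 reached above it.

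MiR-16, the most abundant member, ran from 2665 to 3146 CPM in control (median 3063) and from 1849 to 3843 CPM in HSA (median 2810). HSA libraries lay on both sides of the controls, with 2 above every control library and 3 below. Its log2 fold change was -0.08 (standard error 0.17, 95% interval -0.44 to 0.28, adjusted p = 0.717). Its sign changed with the scaling and with 1 library. With counts scaled by library size only it was 0.48 (adjusted p = 0.0471), with limma on the deposited CPM 0.50, and without HSA replicate 5 it was 0.0054. Library-size scaling moved the median of all tested miRNAs from 0.34 to 0.97, and relative to that median miR-16 was low under both, by -0.42 with TMM and -0.49 without composition factors.

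MiR-15a, its partner, ran from 52.8 to 93.9 CPM in control (median 69.6) and from 56.4 to 161 CPM in HSA (median 93.8). HSA replicates 1, 2 and 3 were above every control library, while replicates 4, 5 and 6 lay among them. The log2 fold change was 0.52 (standard error 0.27, 95% interval -0.07 to 1.12, adjusted p = 0.136 in edgeR's test). It was 0.28, 0.31, 0.33 and 0.35 without HSA replicate 1, 2, 3 and 4, each left out alone, with adjusted p from 0.282 to 0.506. Within each library, miR-15a stood at 1.87% to 2.99% of the miR-16 count in control (median 2.23%) and at 2.27% to 5.24% in HSA (median 3.53%). Such a ratio depends neither on depth nor on scaling, and 4 of them were tested, with 0.5 counts added to each miRNA, by exact two-sided permutation tests and adjustment over the 4. On the log2 scale this ratio was higher in HSA by 0.57 (standard error 0.21, exact permutation p = 0.0195, adjusted 0.026), and 4 of 6 HSA libraries were above every control. This passed an adjusted threshold of 0.05, but not without control replicate 4 or without HSA replicate 1, 2 or 3, where it was from 0.44 to 0.52 with an adjusted exact p of 0.0519. Without HSA replicates 3 and 5 together it was 0.53 (adjusted exact p = 0.102).

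MiR-15b had the clearest difference of the members. It ran from 329 to 467 CPM in control (median 368) and from 407 to 860 CPM in HSA (median 516). In HSA, 4 of 6 libraries were above every control library, and the highest was replicate 3. The log2 fold change was 0.57 (standard error 0.19, 95% interval 0.16 to 0.97, adjusted p = 0.0274), so it missed both thresholds of the call, and its adjusted p was 0.201 without HSA replicate 1 and 0.301 without HSA replicate 4. Without HSA replicates 3 and 5 it was 0.46 (adjusted p = 0.0239). With library size only it was called at 1.15 (adjusted p = 0.00202), where 32.4% of all miRNAs were called, and lay 0.18 above the median of all miRNAs under that scaling and 0.22 above it under TMM.

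Against miR-16, miR-15b separated the groups completely. It stood at 10.8% to 14.8% of the miR-16 count in control (median 12.6%) and at 16.8% to 22.4% in HSA (median 20.2%). All 6 HSA libraries were above all 6 control libraries. The difference was 0.65 on the log2 scale (standard error 0.098, exact permutation p = 0.00216, the smallest that 6 against 6 can give, adjusted 0.00866), or 1.57-fold. Leaving out any single library gave 0.61 to 0.70, and leaving out HSA replicates 3 and 5 together gave 0.56 (adjusted exact p = 0.0381). The lowest HSA values, 16.8% in replicate 6 and 17.5% in replicate 1, belonged to the 2 libraries with muscle miRNAs at the control level. The part of the muscle content and of the erythroid content in the ratio was not tested.

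**Figure D2:**
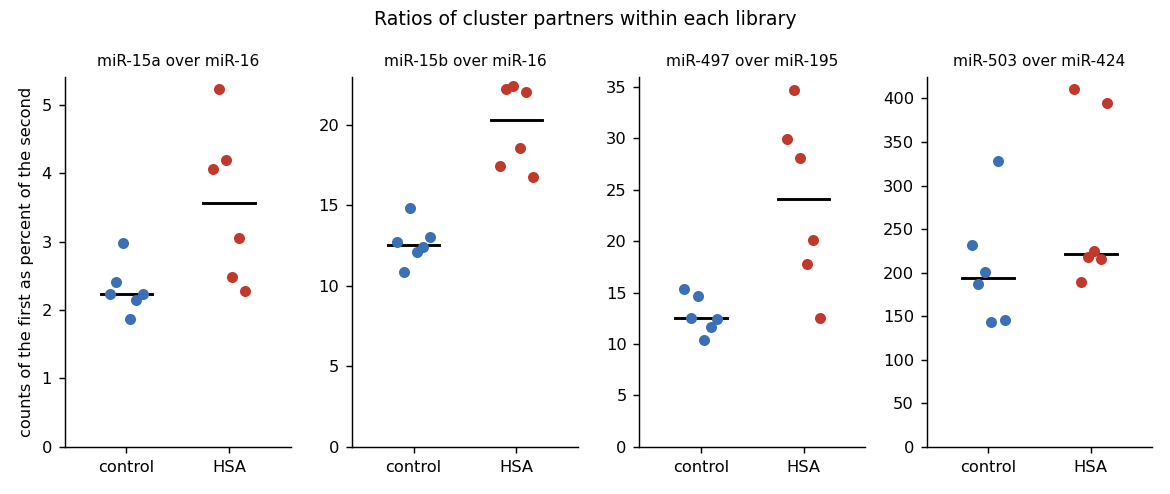
Counts of the first miRNA as percent of the second in each library, for the 4 pairs of cluster partners, with medians as bars. For miR-15b over miR-16, the 6 HSA libraries lie from 16.8% to 22.4%, above the 6 control libraries at 10.8% to 14.8%, and for the other pairs the groups overlap.

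MiR-195 and miR-497 come from 1 cluster but had log2 fold changes of opposite sign. MiR-195 ran from 632 to 911 CPM in control (median 839) and from 573 to 884 CPM in HSA (median 648). Of the HSA libraries 2 lay below every control library, and replicate 6 was the highest. Its log2 fold change was -0.23 (standard error 0.15, 95% interval -0.56 to 0.09, adjusted p = 0.217), and it turned to 0.32 with library size only and to 0.38 with limma on the deposited CPM. Relative to the median of all miRNAs it was the lowest member under both scalings, at -0.57 with TMM and -0.65 with library size only.

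MiR-497 ran from 69.4 to 140 CPM in control (median 107) and from 102 to 217 CPM in HSA (median 156). HSA replicates 1, 2 and 3 were above every control library, the same libraries as for miR-15a. The log2 fold change was 0.60 (standard error 0.26, 95% interval 0.04 to 1.16, adjusted p = 0.0728). Without HSA replicate 1 it was 0.26 (adjusted p = 0.47), and with library size only it was called at 1.24 (adjusted p = 0.00931). As a ratio, miR-497 stood at 10.4% to 15.3% of the miR-195 count in control (median 12.5%) and at 12.5% to 34.7% in HSA (median 23.8%). In 5 of 6 HSA libraries the ratio was above every control library, and HSA replicate 6 lay at the control median. The difference was 0.82 on the log2 scale (standard error 0.24, exact permutation p = 0.0108, adjusted 0.0216), a 1.77-fold higher ratio. It was from 0.70 to 0.99 with each library left out and kept an adjusted exact p of at most 0.0433, but without HSA replicates 3 and 5 together it was 0.78 (adjusted exact p = 0.0952). Of the 2 HSA libraries with muscle miRNAs at the control level, replicate 6 had 12.5% and replicate 1 had 29.9%, one of the highest values.

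**Figure D3:**
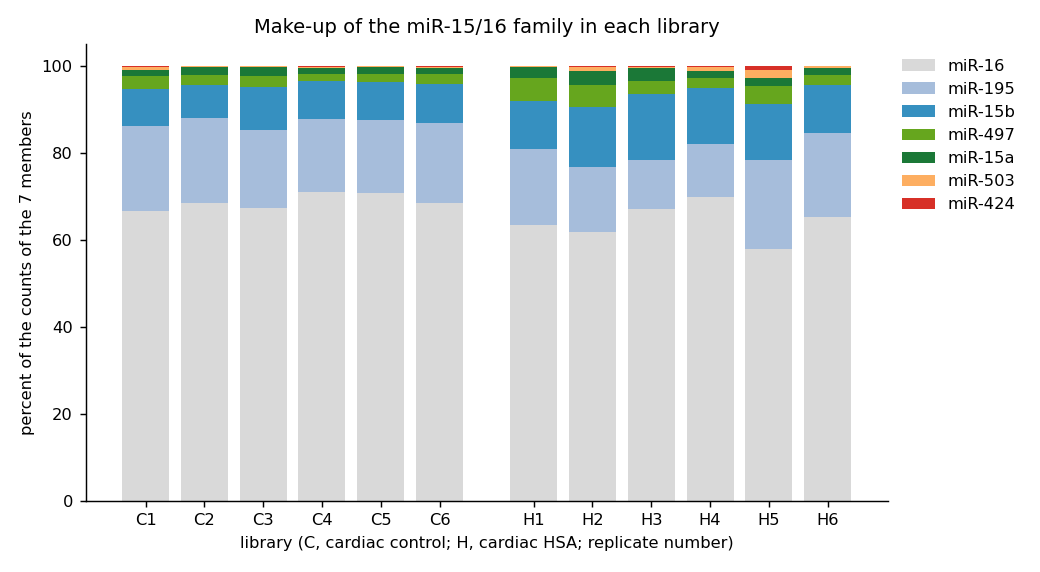
Share of each member in the counts of the 7 members, in percent, as stacked bars for the 6 control libraries (C) and the 6 HSA libraries (H). MiR-16 takes 66.5% to 71.1% of a control bar and 57.9% to 69.7% of an HSA bar, and miR-15b 7.41% to 9.97% and 10.9% to 15.0%.

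MiR-503 and miR-424 were the least abundant members and differed most among the HSA libraries. MiR-503 ran from 8.28 to 29.6 CPM in control (median 11.1) and from 8.07 to 63.7 CPM in HSA (median 26.8), a 7.9-fold range within HSA. HSA replicate 5 was the highest and replicate 1 the lowest of all 12 libraries. On the log2 scale the fold change was 1.14 (standard error 0.47, 95% interval 0.12 to 2.17, adjusted p = 0.0656). It was 0.76 without HSA replicate 4 (adjusted p = 0.198) and 0.77 without HSA replicate 5 (adjusted p = 0.175), each left out alone. Without HSA replicate 3 alone it was 1.19 (adjusted p = 0.0686). Without HSA replicates 3 and 5 together it was 0.76 (adjusted p = 0.225). Without control replicate 1, the library that stood above the other controls, it was 1.52 (adjusted p = 0.0197).

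MiR-424 ran from 2.47 to 12.7 CPM in control (median 6.84) and from 1.79 to 29.4 CPM in HSA (median 13.2). HSA replicates 2, 4 and 5 were above every control library and replicate 1 was below them all. The counts behind these values were small, from 4 in HSA replicate 1 to 157 in HSA replicate 5. In HSA replicate 1 this was 0.0431% of the family (95% Wilson interval 0.0168% to 0.111%). The log2 fold change was 0.90 (standard error 0.57, 95% interval -0.35 to 2.14, adjusted p = 0.216). It was 0.48 without HSA replicate 4 (adjusted p = 0.51) and 0.48 without HSA replicate 5 (adjusted p = 0.5), but 0.94 without HSA replicate 3 (adjusted p = 0.217), and without HSA replicates 3 and 5 together it was 0.43 (adjusted p = 0.599). Counts of miR-503 stood at 143% to 329% of those of miR-424 in control libraries and at 190% to 411% in HSA libraries. It differed by 0.41 on the log2 scale (standard error 0.27, exact permutation p = 0.16, adjusted 0.16), within the spread of the libraries.

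Of the 3 neighbors of this pair, miR-542, miR-450a and miR-450b, the last was called. MiR-450b had the largest change of the cluster, with 38.4 to 98.8 CPM in control (median 52.5) and 87.0 to 650 CPM in HSA (median 235). HSA replicate 1 lay within the control range and the other 5 HSA libraries were above it. The log2 fold change was 2.27 (standard error 0.48, 95% interval 1.24 to 3.31, adjusted p = 0.00353), and the call was lost without control replicate 2, 4 or 5, with adjusted p from 0.0104 to 0.0115. In these 3 fits 29, 26 and 24 of all tested miRNAs were called, against 58 with every library, and the log2 fold change of miR-450b was 2.17 to 2.22. Without HSA replicates 3 and 5 together it was 1.73 (adjusted p = 0.0093). MiR-450a had a log2 fold change of 1.08 (adjusted p = 0.0728) and miR-542 one of 0.58 (adjusted p = 0.17). Without HSA replicate 4 they were 0.47 (adjusted p = 0.349) and 0.23 (adjusted p = 0.585), and without HSA replicates 3 and 5 together they were 0.76 (adjusted p = 0.219) and 0.29 (adjusted p = 0.509). Without HSA replicate 5 alone, miR-542 was at 0.36 (adjusted p = 0.38). A ratio chosen after the values were seen, and so not tested, was that of miR-450b to miR-450a, at 0.853 to 1.53 in control and 1.94 to 3.34 in HSA. The ratio of miR-450b to miR-503 was 3.34 to 6.10 in control and 5.25 to 11.1 in HSA, where replicate 6 lay within the control range.

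**Figure D4:**
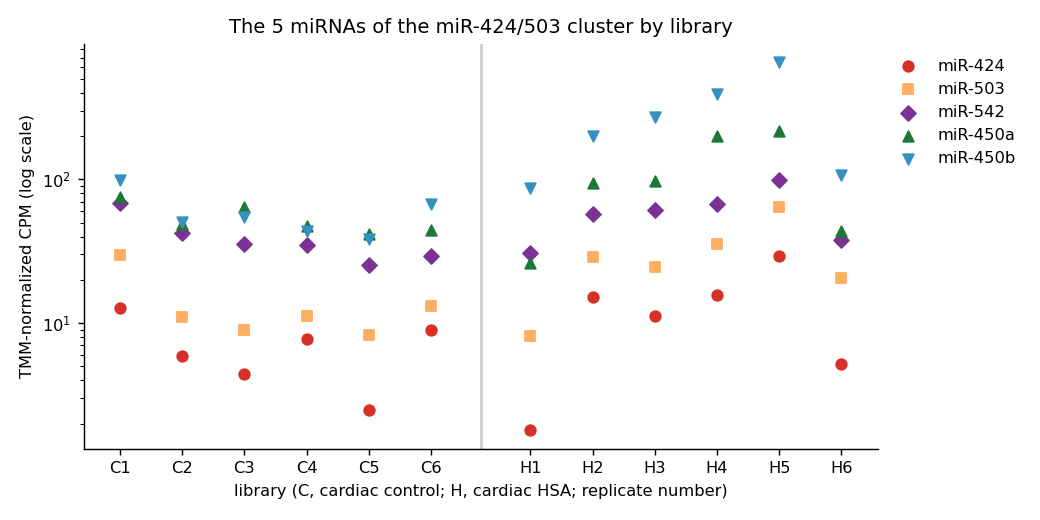
TMM-normalized CPM on a log scale of the 5 miRNAs of the cluster of miR-424 and miR-503 in the 6 control libraries (C) and the 6 HSA libraries (H). All 5 are highest in HSA replicate 5, where miR-450b reaches 650 CPM, and in HSA replicate 1 miR-503 and miR-424 have their lowest value of all libraries.

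**Figure D5:**
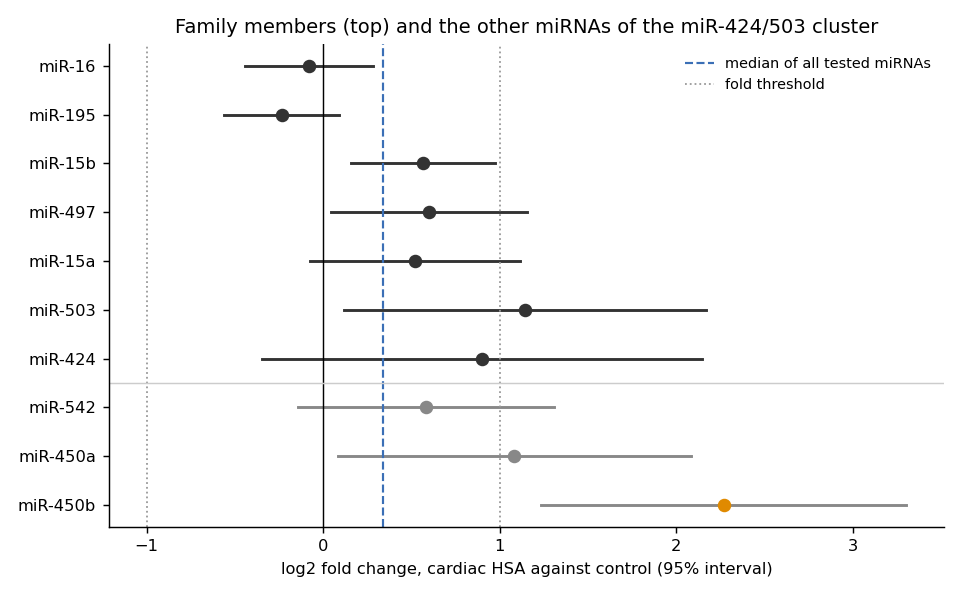
Log2 fold changes of HSA against control with 95% intervals for the 7 members and, below the line, the 3 other miRNAs of the cluster of miR-424 and miR-503, with the median of all tested miRNAs dashed and the fold threshold of 1 dotted. MiR-450b, at 2.27 and drawn in orange, is the single called miRNA of the 10.

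The likeness of the members among themselves differed between the groups for some pairs. The measure was Pearson's r of the deviations of log2 levels from the group mean over the 12 libraries. It is given as a description, since all points share the library's scaling. MiR-424 and miR-503 had an r of 0.94, and each had its highest values outside the family with the other miRNAs of the cluster, miR-503 with miR-542 (0.91) and miR-450b (0.90) and miR-424 with miR-450b (0.90) and miR-542 (0.87). In HSA alone the r of miR-424 and miR-503 was 0.97 and in control alone it was 0.84. MiR-15b had an r of 0.83 with miR-16 (0.87 in HSA and 0.73 in control). MiR-15a had one of 0.58 with its partner miR-16 (0.57 and 0.78), 0.74 with miR-15b and 0.72 with miR-497. The partners miR-195 and miR-497 had an r of 0.33, with 0.95 in control and -0.17 in HSA, and miR-16 and miR-195 had 0.19, with 0.92 in control and 0.04 in HSA. Each of these rests on 6 libraries a group, and the difference between the groups was not tested.

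Outside the family, miR-15a was most like miR-21, an abundant miRNA of tumors and fibrosis (r = 0.96, Spearman's rho 0.95, and 0.92 without HSA replicates 3 and 5), and then miR-106b (0.88). For miR-16 the highest r were those with miR-20a (0.87) of the miR-17-92 cluster and miR-451 (0.83), an erythroid miRNA. Their order turned without HSA replicate 3 (0.81 for miR-20a and 0.98 for miR-451) and by Spearman's rho (0.73 and 0.88), and in control libraries alone miR-20a had an r of 0.20. MiR-497 was most like miR-23a (0.90) and miR-148b (0.79), and miR-195 most like miR-140 (0.76) and miR-27a (0.71). For miR-15b the highest values were those with the liver miRNA miR-122 (0.88) and with miR-93 (0.79). Both were lower without HSA replicate 3, where miR-15b and miR-122 had their highest level. Without it miR-122 had 0.75 and miR-93 had 0.41, and without HSA replicates 3 and 5 they had 0.69 and 0.072. In control alone miR-122, at 4.99 to 43.9 CPM there, had 0.89 and miR-93 had 0.22.

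Other miRNAs of the cell cycle were taken from 2 lists, which were chosen with earlier results of these data known. Some listed miRNAs, such as miR-19a and miR-20a, come from 1 cluster, so those of a list are not separate observations. The counts below are a description. Of the 16 known to promote the passage from G1 to S, all were tested and 8 were called, all higher in HSA, against 18.7% of all tested miRNAs called higher. Their median log2 fold change was 1.21, against 0.34 over all tested. By adjusted p the first were miR-21, at 3.23 on the log2 scale (standard error 0.39, adjusted p = 0.000485), and miR-19a of the miR-17-92 cluster, which rose from 67.7 ± 6.83 to 169 ± 39.9 CPM (SD, n = 6 each), or by 1.32 on the log2 scale (standard error 0.20, adjusted p = 0.000935). Limma called 11 and edgeR with library size only 12, again all higher. Leaving out 1 HSA library, the number called was 2 for replicate 1, 3 for replicate 4, 4 for replicate 3 and 5 for replicate 2, where 45, 38, 43 and 39 of all tested miRNAs were called, against 58 with every library. It was 5 without control replicate 1 and 5 without control replicate 5, where 25 and 24 of all were called. It was 8 without HSA replicates 3 and 5 together, where 41 of all were called.

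Of the 17 other miRNAs known to restrain this step, among them the let-7, miR-29 and miR-34 families, 13 were tested and edgeR called 0, against 25.8% of all tested. Their median log2 fold change was 0.01, against 0.34 over all tested. At an unadjusted p under 0.05 there were 5 of the 13, against 53.3% of all. DESeq2 called 1, miR-34c, higher in HSA, where 24.6% of all were called. Limma called 3 (25.8% of all) and so did edgeR with library size only (32.4% of all), in both cases miR-98, miR-29a and miR-29b, higher in HSA. With 1 library left out, edgeR called miR-34c, higher, without HSA replicate 1 (19.6% of all) and without control replicate 6 (16.4% of all). It called let-7c, lower, without HSA replicate 4 (16.6% of all). MiR-26a had the smallest adjusted p of the list in edgeR's test with every library (0.00759), but its log2 fold change of -0.67 missed the fold threshold. Its groups did not overlap, lower in HSA, nor did those of miR-98, higher in HSA. These miRNAs are named after their values were seen.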

How the data were processed

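Reads of the cardiac libraries were trimmed with Cutadapt, aligned to CanFam3.1 with Bowtie and counted on miRBase miRNAs with HTSeq by the authors, who deposited raw counts per mature miRNA and precursor. The deposited CPM are these counts scaled to the library total, with no composition factor. The kit is NEXTflex in the methods and QIAseq in the labels. Entries identical in name and counts were merged (517 to 474), and a miRNA with several entries is represented by the one with the highest total. EdgeR 4.0.16 in R 4.3.3 was run with TMM, its default low-count filter and the quasi-likelihood test, adjusting over 244 entries. Standard errors were obtained by dividing each log2 fold change by the root of its F statistic, and 95% intervals are not adjusted for multiple testing. Ratios were tested with scipy 1.17.1. DESeq2 1.42.0, limma 3.58.1 (log2 of the deposited CPM plus 1, with a trend) and other scalings, filters and libraries were tried as alternatives. The fits were tested on simulated data.

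Named are the 7 members, the 3 other miRNAs of the cluster of miR-424 and miR-503, from each cell-cycle list at most 2 called miRNAs a direction by adjusted p, and the 2 miRNAs most like each member. The members and lists were chosen with earlier results of these data known. Replicate numbers count dogs and pair none. The splenic samples were not analysed here.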

Additional observations from a re-analysis of the deposited data

Results flagged for a closer look

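The level of miR-503 in control replicate 1, 29.6 CPM, stood apart from the other 5 control libraries, of which the next highest had 13.2 CPM. The gap was 0.77 of the range of the 6 libraries, above Dixon's 95% critical value for 6 samples. It was the single library to stand apart among 30 sets of 6 values examined (the 7 members, the 3 cluster neighbors, the 4 ratios and the family sum in each group), and chance gives about 1 in 20.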

How the results depend on the processing

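The number of members called was 0 in the reported fit and became 2 with library size only (miR-15b and miR-497) and 1 with limma on the deposited CPM (miR-15b). It was 0 in the other 11 of the 13 alternatives that kept all libraries, in the 12 that left out 1, and without HSA replicates 3 and 5 together. The 12 fits that left out 1 library called 10.6% to 28.8% of all tested miRNAs. Without HSA replicates 3 and 5 together 17.4% of all were called. Directions turned for miR-16 (0.48, 0.50 and, without HSA replicate 5, 0.0054) and miR-195 (0.32 and 0.38) with library size only and limma, in that order. With 1 library left out, miR-16 ran from -0.34 to 0.0054. The mean log2 value of the family sum differed by -0.01 (HSA minus control), by 0.54 with library size only, and by -0.30 to 0.061 with 1 library left out. The ratio of miR-15a to miR-16 ran from 0.44 to 0.68, that of miR-15b to miR-16 from 0.61 to 0.70, that of miR-497 to miR-195 from 0.70 to 0.99 and that of miR-503 to miR-424 from 0.28 to 0.55 with 1 library left out. Without HSA replicates 3 and 5 together, 2 ratios no longer passed, miR-15a to miR-16 at 0.53 (adjusted exact p = 0.102) and miR-497 to miR-195 at 0.78 (adjusted exact p = 0.0952), with 4 libraries against 6. That of miR-15b to miR-16 was then 0.56 (adjusted exact p = 0.0381). The cause of these changes was not tested. Same-numbered libraries share only a number, with correlations of their deviations from -0.311 to 0.0767. With the replicate number as a block, 0 members and 6 of all tested miRNAs were called, against 58, miR-450b had an adjusted p of 0.039, and 1 of the 16 promoting miRNAs was called. The low counts of miR-424, down to 4, limit its precision.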
